A study of Homo sapiens with 12 samples.

Results

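Mitotic kinesins are motor proteins that use ATP to move along microtubules or to take microtubules apart during cell division. The genes described here are KIF11, KIF14, KIF15, KIF18A, KIF20A, KIF20B, KIF22, KIF23, KIF2C and KIF4A, 10 of the 19775 genes named on the arrays. They were chosen by name, with earlier results of these data known. Every probe set annotated to 1 of them and to no other gene was read, which gave 16 of the 41091 probe sets with a single gene symbol. A probe set is a group of short array probes that together measure 1 transcript region. Each gene was read from its brightest probe set on average, and all 10 genes passed the filter on low values.

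Dividing cells make most of these motors in G2 and mitosis and lose them soon after, so their mRNA levels in a culture follow how many cells are in those phases as well as how much each cell makes. Their promoters are known to be held down in resting cells by the DREAM complex and opened by MYB and FOXM1 complexes, which meet the DNA at a short element called the cell cycle genes homology region and at CCAAT boxes bound by NF-Y. The adult renal proximal tubule divides rarely, whereas an immortalised tubule line in growth medium cycles until the culture is crowded.

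Expression was measured on Affymetrix arrays in HK-2, an immortalised line of human proximal tubule epithelial cells, at 24 h and 72 h. There were 4 groups of 3 biological replicates, 12 arrays in all: vehicle control at 24 h, a low dose of Ota at 24 h, vehicle control at 72 h and the same dose class of Ota at 72 h. The labels give no concentration and leave Ota as an abbreviation, one in common use for the mycotoxin ochratoxin A. All groups shared a growth medium that held insulin, hydrocortisone and EGF, and exposure started near confluency. The cultures are 1 line without the other cells of the kidney. Of 9 proximal tubule markers, 0 passed the filter (median log2 value 2.44 to 2.46 in the 4 groups), while all 5 epithelial markers did, so the tubule label could not be seen in these markers. What the replicate cultures shared is not stated, so p-values speak only for the spread among these arrays, part of which may be technical. Values are log2 units as deposited, 1 unit being a doubling. The threshold for a call was an adjusted p of 0.05 (limma, Benjamini-Hochberg over 10699 genes).

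The start regions of the 10 genes are shown first, with the short sequence elements that many but not all of them hold. Any part of these elements in the expression changes was not tested. RefSeq promoters of build GRCh38.p14 held an entry for 10 of the 10 genes, 11 entries in all because KIF22 had 2, each running from 250 bases before the annotated transcription start to 50 bases after it. The letters TTTGAA, the core of the cell cycle genes homology region, were present on either strand in 7 of 10 genes (KIF11, KIF14, KIF15, KIF18A, KIF20B, KIF23 and KIF4A), against 15.2% of all 35116 promoters of that length. CCAAT was present in 8 of 10, all but KIF15 and KIF2C, against 34.6%. Both were present in 6 of 10, against 5.90%. The stretches below are the 100 bases just before the start, all outside the transcript. Capitals mark CCAAT and TTTGAA or their reverse complements ATTGG and TTCAAA, and in KIF20A and KIF22 the related letters TTTAAA and TTCGAA. KIF11, KIF23 and KIF4A are shown because both elements stand close to the start, KIF20A and KIF22 because they carry a variant of the element, and KIF2C because neither stands in its stretch.
KIF11 chr10:92593030-92593129 (+ strand): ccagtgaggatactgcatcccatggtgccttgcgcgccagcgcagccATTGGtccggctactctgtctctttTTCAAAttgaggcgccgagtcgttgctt
KIF23 chr15:69414249-69414348 (+ strand): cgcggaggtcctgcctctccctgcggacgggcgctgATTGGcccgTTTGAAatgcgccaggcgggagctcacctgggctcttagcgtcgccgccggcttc
KIF4A chrX:70290004-70290103 (+ strand): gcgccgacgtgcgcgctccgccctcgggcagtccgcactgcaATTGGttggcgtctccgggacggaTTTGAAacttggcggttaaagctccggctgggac
KIF20A chr5:138179012-138179111 (+ strand): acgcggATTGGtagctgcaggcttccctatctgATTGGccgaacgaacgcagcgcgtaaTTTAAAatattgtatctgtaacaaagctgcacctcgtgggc
KIF22 chr16:29790651-29790750 (+ strand): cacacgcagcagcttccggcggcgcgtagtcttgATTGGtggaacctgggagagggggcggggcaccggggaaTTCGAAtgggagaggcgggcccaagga
KIF2C chr1:44739737-44739836 (+ strand): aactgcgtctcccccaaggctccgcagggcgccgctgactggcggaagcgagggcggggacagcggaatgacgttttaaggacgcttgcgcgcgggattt

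With the base before the start counted as -1, the TTTGAA match began at position -28 in KIF11, -34 in KIF4A and -55 in KIF23. The KIF23 stretch also overlaps the annotated antisense gene KIF23-AS1. TTTAAA stood in the promoters of KIF14, KIF20A, KIF23 and KIF2C (12.2% of all promoters), and TTCGAA in that of KIF22 alone (1.45%). The letters of an E2F site, searched as TTTCCCGC, TTTGGCGC, TTTCGCGC and TTTGCCGC, were found only in KIF15 (3.31% of all promoters) directly before its TTTGAA match, without overlap. These are letter matches in a fixed window and not measured binding sites.

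By 72 h all 10 kinesin genes were called lower in control cells (23.6% of all genes tested). In cells given Ota 9 of 10 were called lower (9.99% of all), and KIF15 also read lower but missed the call. The change over time was smaller with Ota in all 10. This difference was called for 9 of 10, all but KIF14, where 15.5% of all genes were called in that direction. At 24 h 0 of 10 genes passed the test in either direction between Ota and control, where 9.44% of all genes tested were called higher and 21.6% lower. At 72 h all 10 were higher in Ota cells, by 1.41-fold (KIF14) to 2.00-fold (KIF11), where 17.1% of all genes were called higher and 14.9% lower. The median of the 10 log2 differences was -0.03 at 24 h and 0.90 at 72 h, against -0.06 and 0.01 over all genes tested. In bulk RNA, fewer cells in mitosis and less mRNA per cell cannot be told apart.

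Among the motors that build the spindle, KIF11 slides antiparallel microtubules apart and so sets up both poles. Its control arrays read 10.41, 9.99 and 10.39 at 24 h and 8.23, 8.74 and 8.29 at 72 h. Its Ota arrays read 10.44, 10.63 and 10.32 at 24 h and 9.55, 9.17 and 9.53 at 72 h. The 24 h groups overlapped, and at 72 h the lowest Ota array stood 0.43 above the highest control array. The difference was 0.20 ± 0.17 at 24 h (SE, adjusted p = 0.409, limma) and 1.00 ± 0.17 at 72 h (adjusted p = 0.00115).

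KIF15 helps to hold the poles apart beside KIF11. The 24 h arrays read 7.51, 7.63 and 7.85 in control and 7.14, 7.30 and 7.40 with Ota. The 72 h arrays read 5.64, 6.41 and 5.62 in control and 6.89, 6.23 and 7.18 with Ota. It was the one kinesin whose 24 h groups did not overlap, with all Ota arrays lower (27.3% of all genes did not overlap in that direction), yet the difference of -0.38 ± 0.25 did not pass the test (adjusted p = 0.275, limma, 95% interval -0.93 to 0.16). At 72 h it was also the one kinesin whose groups overlapped, because Ota replicate 2 lay below control replicate 2, and it was higher by 0.88 ± 0.25 (adjusted p = 0.0191). That call was lost on leaving out any of 4 arrays, Ota replicate 1 or 3 or control replicate 1 or 3 at 72 h, with values of 0.67 to 0.82 and adjusted p of 0.0658 to 0.0782.

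Of the motors that act on chromosomes and kinetochores, KIF18A sits at microtubule plus ends and damps chromosome movement. It read 8.12, 8.03 and 8.53 in control and 8.16, 7.89 and 8.03 in Ota cells at 24 h, then 6.57, 6.70 and 6.48 against 7.46, 6.99 and 7.15 at 72 h. The 72 h groups did not overlap, and the difference was 0.62 ± 0.15 (adjusted p = 0.00978, limma). KIF2C takes microtubule ends apart to correct faulty attachments. Its arrays read 10.29, 10.47 and 10.55 in control and 10.21, 10.65 and 10.42 in Ota cells at 24 h, then 8.51, 8.93 and 8.62 against 9.74, 9.35 and 9.72 at 72 h. Every Ota array at 72 h was above every control array, and the difference was 0.91 ± 0.15 (1.88-fold, adjusted p = 0.00107).

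KIF22 is a chromokinesin, a motor that binds chromosome arms and pushes them toward the spindle middle. It read 8.35, 8.20 and 8.26 in control and 8.11, 8.23 and 8.05 in Ota cells at 24 h, then 6.47, 6.93 and 6.80 against 7.80, 7.52 and 7.65 at 72 h. Its 72 h groups had the widest gap of the 10 genes, 0.59 between the lowest Ota and the highest control array. The difference was 0.92 ± 0.12 (1.90-fold, adjusted p = 0.000242, limma). KIF4A, the other chromokinesin, binds PRC1 at the central spindle and limits microtubule growth there. It read 9.93, 10.21 and 9.90 in control and 9.85, 10.15 and 9.92 in Ota cells at 24 h, then 7.82, 8.16 and 7.92 against 9.15, 8.65 and 9.07 at 72 h. Its 24 h groups lay on top of each other, and at 72 h it was 0.99 ± 0.15 higher (1.98-fold, adjusted p = 0.000616).

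Of the motors of the central spindle and cytokinesis, KIF23 forms centralspindlin with RACGAP1, the complex that marks where the cell will be cleaved. It read 9.05, 8.78 and 9.26 in control and 8.88, 9.08 and 9.11 in Ota cells at 24 h, then 6.67, 7.29 and 6.81 against 8.18, 7.60 and 7.91 at 72 h. All 3 Ota arrays lay inside the control range at 24 h and above it at 72 h. The difference at 72 h was 0.97 ± 0.19 (1.96-fold, adjusted p = 0.00265, limma). KIF20A carries the chromosomal passenger complex to the central spindle. Its arrays read 10.13, 10.17 and 10.18 in control and 9.94, 10.39 and 10.13 in Ota cells at 24 h, then 7.94, 8.05 and 7.80 against 8.89, 8.41 and 8.93 at 72 h. The groups overlapped at 24 h and not at 72 h, where the difference was 0.81 ± 0.15 (1.75-fold, adjusted p = 0.00188).

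KIF20B acts late in cytokinesis. It read 9.31, 9.40 and 9.35 in control and 9.00, 9.38 and 9.10 in Ota cells at 24 h, then 7.47, 7.98 and 7.56 against 8.44, 8.12 and 8.22 at 72 h. The 72 h groups stood 0.15 apart, and the difference was 0.59 ± 0.15 (1.51-fold, adjusted p = 0.00950, limma). KIF14 works with PRC1 and citron kinase in cytokinesis. It read 10.14, 10.28 and 10.43 in control and 10.16, 10.48 and 10.24 in Ota cells at 24 h, then 8.63, 8.78 and 8.38 against 9.33, 8.80 and 9.13 at 72 h. Its 72 h groups were separated by 0.02 only, and it had the smallest difference of the 10, 0.49 ± 0.15 (1.41-fold, adjusted p = 0.0300). That call too was lost on leaving out any of the same 4 arrays as for KIF15, with values of 0.37 to 0.51 and adjusted p of 0.0645 to 0.122.

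**Figure D1:**
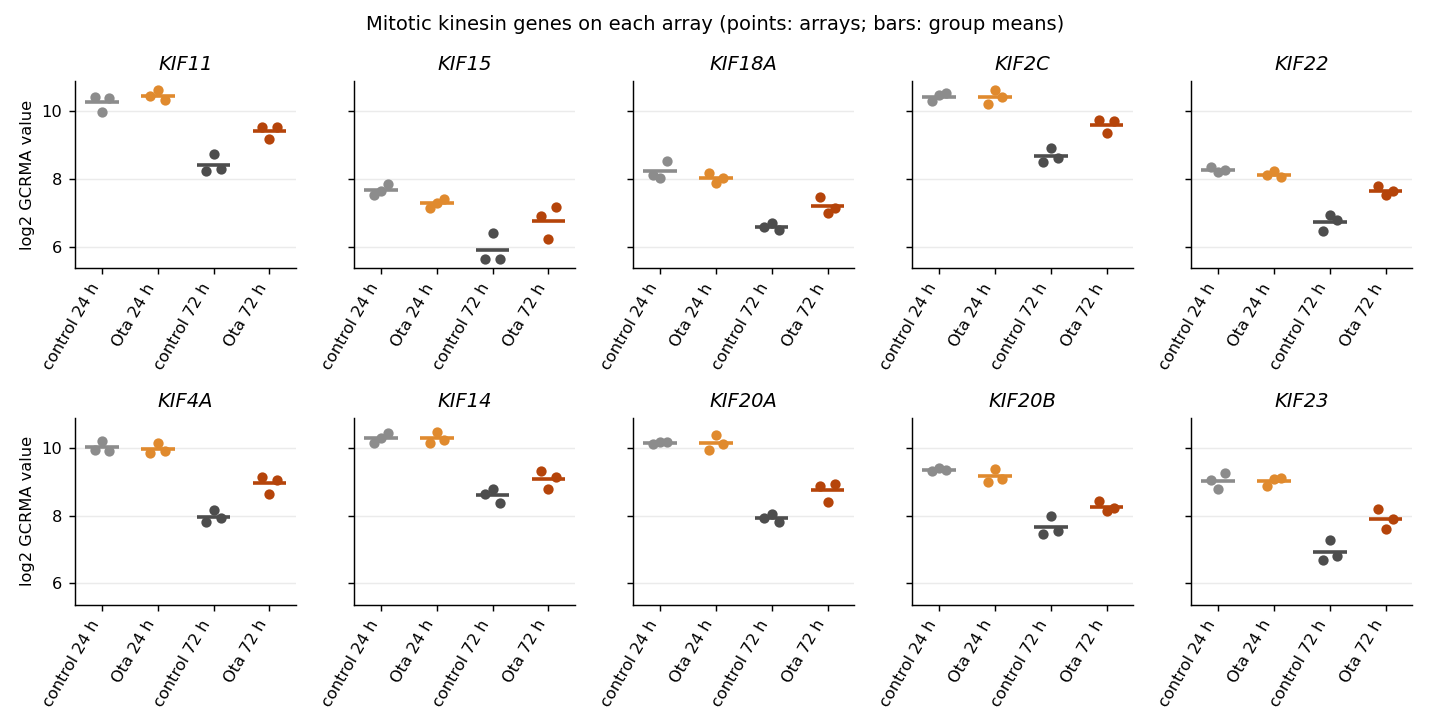
Log2 GCRMA value (vertical axis) of each of the 10 kinesin genes on the 12 arrays, 1 panel a gene, with the groups along the horizontal axis. Points are arrays and bars are means of 3 arrays. In every panel both 72 h groups lie below both 24 h groups, except that 1 KIF15 Ota array at 72 h lies above 1 Ota array at 24 h, and the Ota mean at 72 h lies above the control mean.

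For 9 of 10 genes, all but KIF15, every Ota array at 72 h was above every control array, where 26.0% of all genes did not overlap in that direction. The 95% intervals of the 10 differences at 24 h reached from -0.93 to 0.57 in all, so a 24 h value that missed the test does not show that the groups were alike. The lowest unadjusted p at 24 h was 0.150, and 0 of 10 lay below 0.05. The sign at 24 h was negative for 8 genes and positive for KIF11 and KIF14. Shifting the arrays to a common median, which raised the all-gene median at 24 h from -0.06 to 0.07, turned the sign of 4 of the 8 (KIF20A, KIF23, KIF2C and KIF4A).

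**Figure D2:**
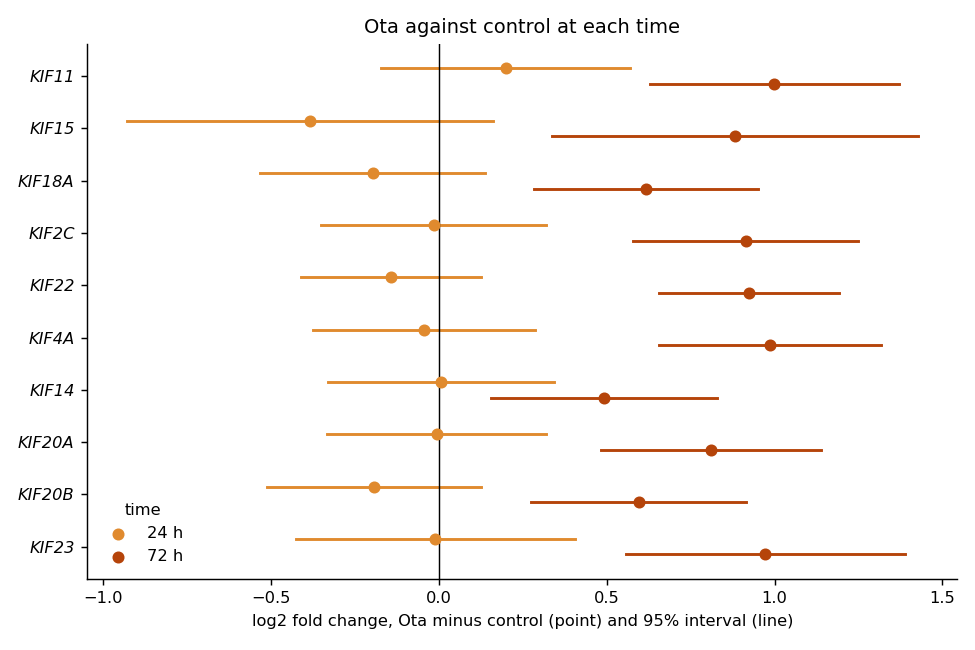
Log2 fold change of Ota against control (horizontal axis) for each kinesin gene at 24 h and at 72 h. Points are fitted values and lines 95% intervals from limma. All 24 h intervals hold 0, and all 72 h intervals lie above 0, from 0.49 for KIF14 to 1.00 for KIF11 in fitted value.

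By the same test as that of the smaller change over time with Ota, the response differed between the times for 9 of 10 genes. In that difference (72 h minus 24 h) 15.5% of all genes were called higher. It was 1.27 ± 0.35 for KIF15 (adjusted p = 0.0256, limma), 1.07 ± 0.17 for KIF22 (adjusted p = 0.00210) and 1.03 ± 0.21 for KIF4A (adjusted p = 0.00707). KIF14, at 0.49 ± 0.22, did not pass (adjusted p = 0.136). The median was 0.87, against 0.09 over all genes tested. Without Ota 72 h replicate 1 the count dropped to 3 of 10, where 1134 of 10699 genes were called higher, against 1659 in the main fit. With no filter on low values it dropped to 4 of 10, where 1241 of 19775 genes were. Leaving out Ota 24 h replicate 1, control 72 h replicate 1 or control 72 h replicate 3 gave 6 of 10, where 1411, 1271 and 1328 of 10699 genes were called higher. The call of KIF11 was lost in 10 of 19 alternatives (adjusted p up to 0.0899), that of KIF15 in 7 and that of KIF23 in 6, whereas KIF22, KIF2C and KIF4A lost it in 0 of 19.

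In control cells all 10 fell from 24 h to 72 h, by 2.91-fold (KIF22) to 4.67-fold (KIF20A), where 23.6% of all genes were called lower. The median change was -1.76, with the median of all genes at -0.00085, and adjusted p ran from 1.29e-06 to 0.000154 (limma). For all 10 the 2 groups did not overlap (27.7% of all genes in that direction). In Ota cells 9 of 10 were called lower, from 1.39-fold (KIF22) to 2.65-fold (KIF20A), where 9.99% of all genes were called lower. Those 9 did not overlap between the times (19.4% of all genes in that direction). KIF15 changed by -0.51 ± 0.25 in Ota cells and did not pass (adjusted p = 0.138). The comparisons share arrays: a control array at 72 h enters both the control time course and the Ota response, so the sizes of the 2 are not independent of each other.

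Set side by side on the log2 scale, the change in Ota cells was 28.8% of that in control cells for KIF15 and 30.8% for KIF22. It was 46.9% for KIF2C, 49.7% for KIF4A, 50.5% for KIF18A, 53.3% for KIF20B, 53.3% for KIF23 and 56.8% for KIF11. KIF20A at 63.3% and KIF14 at 71.3% had the largest shares, and the median was 51.9%. These shares carry no interval. On the second KIF22 probe set the change was -0.66 in Ota cells and -1.36 in control cells, against -0.47 and -1.54 on the brightest. The low share of KIF22 therefore depends on the probe set. For all 10 genes each Ota array at 72 h was still below each control array at 24 h. In every gene both 24 h means were highest, Ota at 72 h came next and control at 72 h was lowest. Of the neighbours in that order, the 24 h groups did not pass the test in any gene, and KIF15 did not pass between Ota at 24 h and Ota at 72 h.

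**Figure D3:**
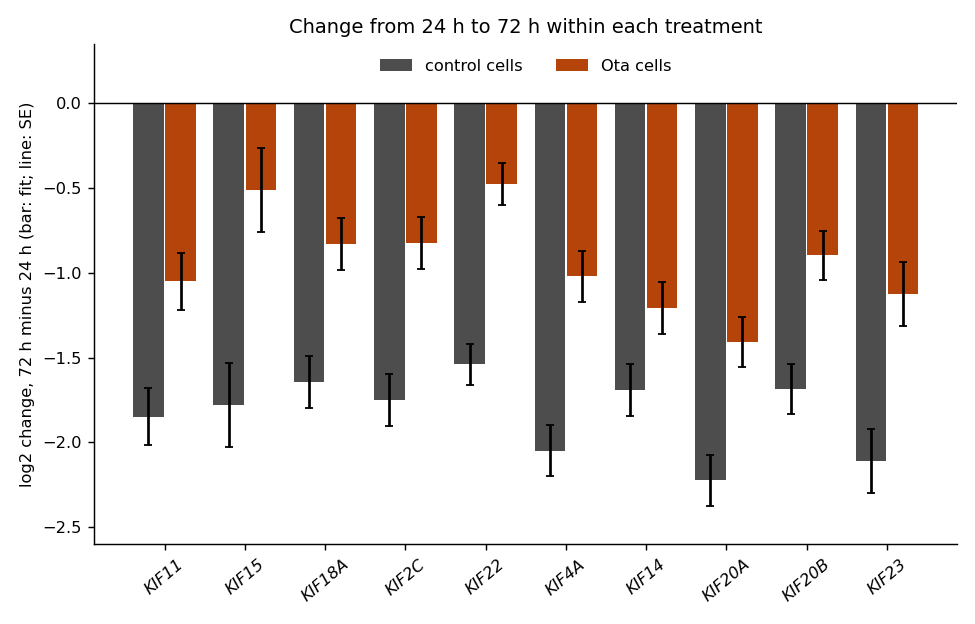
Change from 24 h to 72 h (vertical axis, log2 units) in control cells and in Ota cells for each kinesin gene. Bars are fitted values and lines are 1 SE. Control bars run from -1.54 (KIF22) to -2.22 (KIF20A), and each Ota bar is shorter, from -0.47 (KIF22) to -1.41 (KIF20A).

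The probe sets of a gene that passed the filter had the same direction at 72 h and over time, though sizes differed. In a fit over all 19460 single-symbol probe sets that passed the filter, 14 of the 16 kinesin probe sets entered. The other 2, both of KIF20B and of the type that can match other transcripts, read 3.20 to 3.55 on every array. At 24 h 0 of 14 passed (12.3% of all probe sets were higher and 19.0% lower). At 72 h 13 of 14 were higher (16.8% of all). The second probe sets of KIF14, KIF22 and KIF2C read 0.56, 0.69 and 0.88 higher (adjusted p = 0.0429, 0.00229 and 0.00163, limma). The second probe set of KIF23 read only 2.49 to 5.19 and did not pass at 0.63 (adjusted p = 0.110). The difference of responses was called for 11 of 14 (12.1% of all). For KIF22 it was 0.70 on the second probe set, against 1.07 on the brightest. In control cells 14 of 14 were lower at 72 h than at 24 h (20.4% of all), and in Ota cells 13 of 14 were (9.20% of all).

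The kinesin genes also moved together between replicates. On control 72 h replicate 2 all 10 genes had the highest value of their group, with a mean deviation of 0.26 from the group means. On Ota 72 h replicate 2 all 10 had the lowest value, with a mean deviation of -0.27. Over all genes tested the mean deviations of those arrays were 0.02 and 0.01. The central spindle partners deviated by 0.15 and -0.23 on the same arrays, and the transport kinesins by -0.02 on each. These arrays brought the 72 h groups closer together. With both left out, an alternative chosen after seeing the data, the differences were 0.73 (KIF14) to 1.41 (KIF15), and 1.28 for KIF11. Because the arrays were chosen for their values, leaving them out could only widen the differences, and the calls without them are no support.

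**Figure D4:**
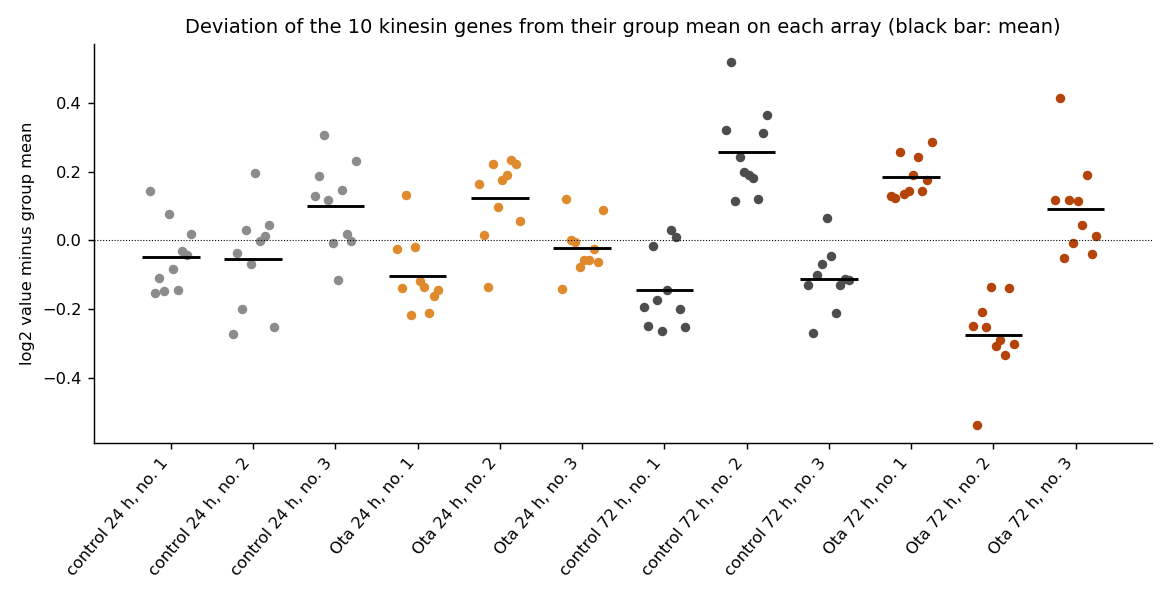
Deviation of each kinesin gene from its group mean (vertical axis, log2 units) on each of the 12 arrays. Points are genes and black bars are means over the 10 genes. All points of control 72 h replicate 2 are above 0 and all points of Ota 72 h replicate 2 are below 0, with means of 0.26 and -0.27.

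Across the 12 arrays the 45 pairs of kinesin genes correlated with Pearson r of 0.91 to 0.99, median 0.97. The arrays share their groups and their normalization, so most of this follows the fall between the times. After the group means were taken out, r was 0.10 to 0.87 with a median of 0.69, and all 45 pairs were above 0. Of 10689 other genes, those most like the mean kinesin pattern by r over 12 arrays were CCNA2 (0.996), LSM3 (0.996), ANLN (0.995), CENPE (0.994), PRC1 (0.993), PSMD1 (0.993), CDCA2 (0.992), BUB1B (0.992), TTK (0.991) and RACGAP1 (0.991). Of these 10 genes 6 stood in the partner lists described next: cyclin A2, the cytokinesis proteins anillin, PRC1 and RACGAP1, the kinetochore motor CENPE and the checkpoint protein BUB1B. LSM3, a subunit of RNA splicing and decay complexes, and PSMD1, a proteasome subunit, stood in none.

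For each list count below, the all-gene shares were 9.44% higher and 21.6% lower at 24 h, and 17.1% and 14.9% at 72 h. Among mitotic kinesins outside the 10, 4 of 5 were tested and 2 were higher at 72 h. CENPE, which carries chromosomes to the spindle middle, was higher by 0.90 ± 0.20 (adjusted p = 0.00654, limma), and KIF18B, a depolymerase of astral microtubules, by 0.80 ± 0.18 (adjusted p = 0.00544). At 24 h KIF2A was lower by 0.24 ± 0.08 (adjusted p = 0.0396), but a second probe set read 0.07 and was not called. At 72 h KIF2A read 0.01 ± 0.08.

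Of 12 central spindle and cytokinesis partners listed, 11 had a single-symbol probe set and 10 were tested, and at 72 h 10 of 10 were higher, with a median of 0.81. ANLN, the cleavage furrow scaffold anillin, was higher by 1.29 ± 0.17 (2.44-fold, adjusted p = 0.000242, limma) and CEP55, which recruits the machinery of the final cut, by 1.05 ± 0.14 (2.07-fold, adjusted p = 0.000210). At 24 h 1 was higher and 1 lower. AURKB, the kinase of the passenger complex that KIF20A carries, changed by -1.08 ± 0.14 at 24 h (adjusted p = 0.000215) and higher by 0.81 ± 0.14 at 72 h (adjusted p = 0.00146), while its dimmer probe set read 0.26 and 0.60 and was not called. ARF6, a small GTPase that binds centralspindlin, was called higher by 0.27 at 24 h (adjusted p = 0.0412), while a different probe set of ARF6 was called lower at -0.28, so its direction is uncertain. At 72 h ARF6 was called higher on its brightest probe set (0.37), while the others read -0.12, -0.12 and 0.07 and were not called.

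Of 15 kinetochore and microtubule end partners, 11 were higher at 72 h and 0 lower, with a median of 0.79. SKA1, which tracks microtubule ends at kinetochores, was higher by 1.78 ± 0.12 (3.43-fold, adjusted p = 5.06e-06, limma), and NUF2, a microtubule-binding subunit of the NDC80 complex, by 1.20 ± 0.16 (2.29-fold, adjusted p = 0.000289). The SKA1 probe set is of the type that can match other transcripts, and its control arrays at 72 h read only 4.18 to 4.68. At 24 h 0 of the 15 were higher and 4 lower. SPC25, another NDC80 complex subunit, changed by -1.14 ± 0.25 at 24 h (adjusted p = 0.00552) and by 1.64 ± 0.25 at 72 h (adjusted p = 0.000685). MAPRE1, the plus end protein EB1, changed by -1.04 ± 0.15 at 24 h (adjusted p = 0.000378), with both probe sets lower. Of 15 spindle assembly partners, 6 were higher and 0 lower at 72 h, with a median of 0.41. SPAG5 (astrin), a spindle and kinetochore protein, was higher by 1.22 ± 0.19 (adjusted p = 0.000683), and TACC3, which cross-links spindle microtubules, by 0.65 ± 0.11 (adjusted p = 0.00139). At 24 h 1 was higher and 2 lower, among them NEK7 at 0.38 ± 0.09 (adjusted p = 0.00700) and NEK6 at -0.53 ± 0.08 (adjusted p = 0.000739), both kinases known to phosphorylate KIF11. At 72 h the NEK6 probe sets disagreed, the brightest at 0.18 and not called and the other at 1.04 and called higher.

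Of 19 transcription factors of mitotic genes, 17 were tested, and at 72 h 9 were higher and 0 lower (median 0.61). MYBL2, which activates mitotic genes as part of the MuvB complex, was higher by 1.30 ± 0.15 (2.46-fold, adjusted p = 9.88e-05, limma). E2F7, a repressor of E2F targets, was higher by 1.96 ± 0.13 (3.90-fold, adjusted p = 4.42e-06) after -0.60 ± 0.13 at 24 h (adjusted p = 0.00552). At 24 h 3 were higher and 3 lower, and the readings of RBBP4 and TFDP2 disagreed between probe sets. RBBP4 read -0.98 on its brightest probe set and 2.61 to 2.82 on 3 others, and TFDP2 read 1.09 on its brightest and -1.06 on another. At 72 h TFDP2 was called higher on its brightest probe set (0.66), while the others read -0.22, -0.09 and 0.68 and were not called. RBBP4 was not called on its brightest at 72 h (-0.41), while the same 3 others were called higher, by 1.47 to 1.52.

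Of 15 mitotic cyclins, kinases and proliferation markers, 9 were higher and 0 lower at 72 h (median 0.57). At 24 h 0 were higher and 6 lower (median -0.23). PCNA, the replication clamp, was higher by 1.14 ± 0.14 at 72 h (adjusted p = 0.000146, limma), and PKMYT1, which holds CDK1 inactive, by 1.29 ± 0.14 (adjusted p = 8.55e-05) after -0.89 ± 0.14 at 24 h (adjusted p = 0.000728). The PKMYT1 probe set is also of the type that can match other transcripts, and its control arrays at 72 h read only 4.12 to 4.53. CDC25B, which activates CDK1, changed by -1.21 ± 0.18 at 24 h (adjusted p = 0.000408). Of 13 tubulins and microtubule regulators, 1 was higher and 4 lower at 24 h (median -0.31), and 9 were higher and 0 lower at 72 h (median 0.44). STMN1, which binds free tubulin, was higher by 1.19 ± 0.15 (adjusted p = 0.000185) and TUBG1, the nucleating gamma-tubulin, by 0.90 ± 0.11 (adjusted p = 0.000121). TUBB2A, a beta-tubulin, was 2.00-fold lower at 24 h (adjusted p = 0.00253). MAP4 read 0.69 higher at 24 h on its brightest probe set and -0.80 on another.

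**Figure D5:**
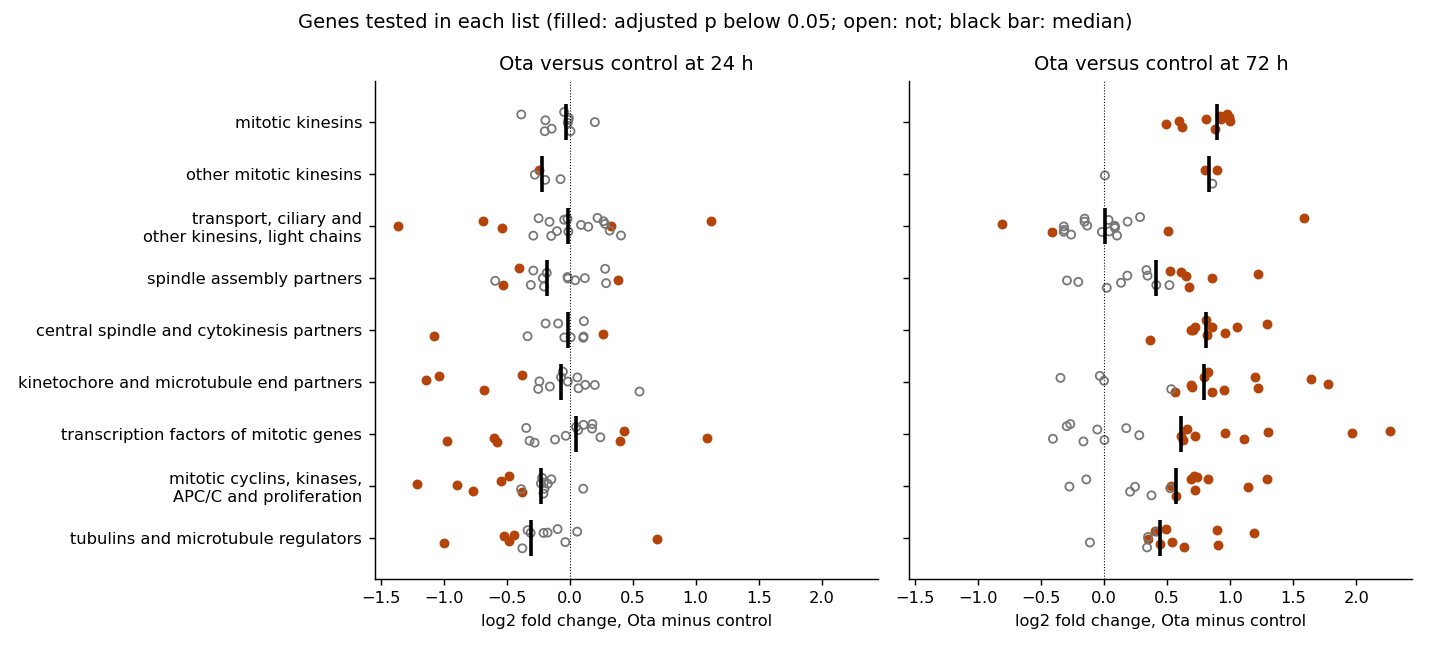
Log2 fold change of Ota against control (horizontal axis) for the genes tested in the kinesin group and in each of 8 other lists, at 24 h (left) and 72 h (right). Points are genes, filled where the adjusted p was below 0.05, and bars are list medians. The kinesin points center on -0.03 at 24 h and 0.90 at 72 h. The transport kinesins at 72 h have a median of 0.01 and run from -0.81 (KLC3) to 1.59 (KIF3C).

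Cargo-carrying and ciliary kinesins work in resting as well as dividing cells. Of 32 transport, ciliary and other kinesins and light chains, 20 were tested, and at 72 h 2 were higher and 2 lower, with a median of 0.01. KIF3C, a kinesin-2 motor, was higher by 1.59 ± 0.20 (3.00-fold, adjusted p = 0.000194, limma), and its second probe set by 0.97, which was also called at 24 h at 0.53. On the brightest probe set the KIF3C control arrays at 72 h all read 4.87, a near-constant low value, so the size of the difference is uncertain. KLC3, a kinesin light chain, was called lower (adjusted p = 0.00417), but all its Ota arrays at 72 h read 3.78 to 3.93, under the filter value of 4, against 4.25 to 5.00 in control, so the size of the difference is uncertain. At 24 h 2 were higher and 3 lower. KIF26B, which lacks motor activity, was higher by 1.12 ± 0.25 (adjusted p = 0.00532). KLC1, the main light chain of kinesin-1, changed by -1.37 ± 0.12 (adjusted p = 1.43e-05), where another probe set read -2.36 and the remaining one 0.19. In control cells over time 5 of the 20 were called higher and 2 lower, where 22.7% of all genes were called higher and 23.6% lower.

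Markers of other cell types and RNA quality were read beside these results. Of 6 fibroblast markers, 3 passed the filter (COL1A1, DCN and LUM), while COL1A2, PDGFRA and PDGFRB lay at the floor, with control means at 24 h of 3.02, 2.74 and 2.35. COL1A1 was not called at 72 h (0.23, adjusted p = 0.454, limma). DCN and LUM were higher in Ota cells at 72 h by 1.09 ± 0.29 (adjusted p = 0.0141, limma) and 1.68 ± 0.24 (adjusted p = 0.000391), and in control cells over time they fell by 1.74 and 1.81 and COL1A1 fell by 1.01. The summed linear level of the 6 markers was 3421 to 5104 in control and 3486 to 4990 in Ota cells at 24 h, and 1108 to 1620 against 2328 to 3410 at 72 h. Of the 5 epithelial markers, CDH1 and KRT18 changed the other way at 72 h, by -1.11 ± 0.23 (adjusted p = 0.00390) and -0.87 ± 0.11 (adjusted p = 0.000182), while KRT19 (0.32), EPCAM (0.04) and KRT8 (-0.25) were not called. KRT19 was lower at 24 h (-0.41, adjusted p = 0.0293), as was KRT18 (-0.39, adjusted p = 0.0183). Between the times (72 h minus 24 h) the KRT19 response differed by 0.74 (adjusted p = 0.0159, limma). That of KRT18 differed the other way, by -0.48 (adjusted p = 0.0466). Of the fibroblast markers LUM differed by 1.40 (adjusted p = 0.0144), while DCN (1.03) and COL1A1 (0.73) were not called. The summed level of the 5 at 72 h was 24660 to 25580 in control and 21300 to 23760 in Ota cells. The part of these shifts in the kinesin result was not tested. No marker of endothelium, leukocytes or distal nephron passed the filter, and 2 podocyte markers did (PODXL and SYNPO), with SYNPO called higher at 24 h (0.45, adjusted p = 0.0496) and neither called at 72 h. The actin 3' to 5' difference, a measure of RNA degradation, was 1.01 ± 0.21, 1.17 ± 0.12, 1.18 ± 0.17 and 1.28 ± 0.08 (SD, n = 3) for control and Ota at 24 h and control and Ota at 72 h. The same difference for GAPDH was -0.07 ± 0.02, -0.06 ± 0.01, -0.07 ± 0.01 and -0.08 ± 0.05 in that order.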

How the data were processed

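Total RNA of 12 cultures was labelled as biotinylated cRNA and read on Affymetrix arrays. The deposited values are log2 intensities that the authors made with GCRMA, per the submitters' processing notes; its version and settings are not given in the sources used here. GCRMA subtracts a sequence-based background and applies quantile normalization, so low values sit on a floor and a shift of all RNA is hard to see. Of 54675 probe sets, 62 controls were left out, 41091 had 1 gene symbol, 1801 several and 11721 none. Symbols came from the platform annotation, updated through RefSeq (GRCh38.p14). Each gene took its brightest probe set, kept above log2 4 on at least 3 arrays. limma 3.58.1 (R 4.3.3) fitted 1 mean per group over all 12 arrays (residual degrees of freedom 8, prior 3.31), and was tested on simulated data. The same fit was run over 19460 probe sets.

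The members and the 8 partner lists were chosen with earlier results of these data known. The naming rule took all kinesin genes, up to 2 called genes of smallest p per list and Ota comparison, and the 10 genes most like the kinesin mean; the counts of calls across lists carry no enrichment test. Replicate numbers are shared by the groups, and same-numbered control and Ota arrays at 24 h deviated together (r = 0.44, 0.32 and 0.45 over genes tested), less so at 72 h (0.11, 0.07 and 0.27). Over all 18 pairs of groups and numbers r was 0.07 to 0.45, over 0.1 in 14. Alternatives were another normalization, scaling, filter, probe set rule, spread estimate, sample set and block, and leaving out single arrays. The number of arrays limits the precision. Plots were made in matplotlib 3.10.9 (Python 3.11.15).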

Additional observations from a re-analysis of the deposited data

Results flagged for a closer look

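The response to Ota differed between 24 h and 72 h by the fit's own test of that difference (72 h minus 24 h, log2 units, limma with adjusted p below 0.05) for 9 kinesin genes. For the kinesin genes this is the test already given above and not a separate result. The values were 1.27 for KIF15, 1.07 for KIF22, 1.03 for KIF4A, 0.98 for KIF23, 0.93 for KIF2C, 0.82 for KIF20A, 0.81 for KIF18A, 0.80 for KIF11 and 0.79 for KIF20B. The KIF11, KIF15 and KIF23 calls were lost in 10, 7 and 6 of 19 alternatives. Among the other spindle motors the difference was 1.08 for KIF18B and 0.97 for CENPE. It was 1.18 for ANLN, 1.24 for CEP55 and 1.89 for AURKB at the central spindle. At kinetochores and microtubule ends it was 2.78 for SPC25, 2.16 for SKA1, 1.13 for NUF2 and 0.69 for MAPRE1. Of the spindle assembly partners, SPAG5 differed by 1.10 and NEK6 by 0.71, and of the transcription factors E2F7 by 2.57 and MYBL2 by 1.42. PKMYT1 differed by 2.18, PCNA by 1.52 and CDC25B by 0.93. Among tubulins and microtubule regulators it was 1.38 for TUBG1, 1.35 for TUBB2A, 1.13 for STMN1 and -0.81 for MAP4. Of the transport kinesins, KIF3C differed by 1.18 on its brightest probe set and the light chain KLC1 by 1.21. The second KIF3C probe set differed by 0.44 and was not called. The dimmer AURKB probe set differed by 0.34 and was not called. Another KLC1 probe set was called at 2.12, and the remaining one read -0.06 and was not called. For MAP4 another probe set was called at -0.84, while the rest read -0.53, -0.08 and 0.29 and were not called. For MAPRE1, CDC25B, KLC1 and TUBB2A the 24 h response was called lower, and the 72 h response was not called. NEK6 was called lower at 24 h on both probe sets, at -0.53 and -0.55, while at 72 h its brightest probe set was not called at 0.18 and the other was called higher at 1.04.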

How the results depend on the processing

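In control cells over time all 10 kinesin genes stayed lower under all 14 alternatives run, where 2169 to 2776 of all genes tested were called lower. At 72 h, under the 14 alternatives other than the one without both arrays numbered 2, the number of kinesin genes higher in Ota cells was 8 to 10. Of all genes tested, 1280 to 2077 were called higher under these alternatives. All kinesin values stayed positive. Apart from KIF14 and KIF15, the call lost there was that of KIF20B (0.18, adjusted p = 0.0694, limma) when the probe sets of a gene were averaged, which brings in its 2 probe sets at the floor. KIF14 and KIF15 also missed with no filter (adjusted p = 0.0731 and 0.0644) and with only the groups of the comparison (0.0546 and 0.0601), and over those alternatives their adjusted p ran from 0.0101 to 0.122 and from 0.00394 to 0.0782. The count for the difference of responses was 4 with no filter, where 1241 of 19775 genes were called higher. On leaving out single arrays it was 3 to 9, where 1134 to 1799 of 10699 genes were called higher. In Ota cells over time KIF22 missed without Ota 72 h replicate 2 (-0.41, adjusted p = 0.0529). With the replicate block the counts were 0 at 24 h, 10 at 72 h, 9 for the difference, 10 for control cells and 9 for Ota cells, so the pairing changed no kinesin count. Over all 10699 genes the block gave 1221 higher and 2594 lower at 24 h. It gave 2077 higher at 72 h, 2010 higher for the difference, 2776 lower in control cells and 1290 lower in Ota cells. At 24 h, where no kinesin passed, signs turned with repeated quantile normalization (KIF20A 0.013, KIF23 0.0074), with arrays shifted to a common median (KIF20A 0.12, KIF23 0.11, KIF2C 0.11, KIF4A 0.080) and with averaged probe sets (KIF14 -0.058, KIF2C 0.020). On leaving out single arrays the 24 h value ranged from -0.089 to 0.080 for KIF14, -0.12 to 0.10 for KIF20A, -0.14 to 0.11 for KIF23, -0.13 to 0.093 for KIF2C and -0.13 to 0.055 for KIF4A. The median shift also turned the all-gene calls at 24 h from 1010 higher and 2307 lower to 1881 and 1697, those of the difference from 1659 and 619 to 1164 and 1184, and those of Ota cells over time from 2378 and 1069 to 1668 and 2001. The cause of these shifts was not tested. Values near the floor limit KIF23's second probe set, and 3 arrays per group limit all intervals.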

Other observations

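Of the 10 genes most like the kinesin pattern, 4 stood in no list. LSM3 read 0.65 higher in Ota cells at 72 h and -1.40 in control cells over time (log2 units), and PSMD1 read 0.47 and -0.99. CDCA2, a chromatin protein of dividing cells, read 0.79 and -2.25, and the checkpoint kinase TTK read 0.66 and -1.71. At 24 h the Ota values of these genes lay between -0.15 and -0.02. They were chosen for their likeness over these arrays, so the values are a description.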
